A study of Nothobranchius furzeri with 20 samples.

Results

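The 200 transcripts that varied least among 20 skin libraries of rotenone-treated male turquoise killifish (Nothobranchius furzeri) were described as candidate reference transcripts. They were chosen out of 26739 genes by CPM, a gene's reads divided by the library's total and multiplied by 1 constant for all libraries. A mean CPM of at least 32 was asked for, and the 100 most abundant genes were left out, after which 4646 genes remained. In 361 of these the libraries of the 27-week, the 1% or the 10% group lay all above or all below the 9-week libraries of the other groups, and they were dropped. Of the 4285 genes left, the 200 with the lowest standard deviation (SD) of log2(CPM + 1) over the 20 libraries were kept. This SD takes in every group, so the levels, spreads and group differences of the 200 transcripts are descriptions of what chose them.

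RNA of skin was sequenced from TruSeq libraries of strain MZM-04/10p, 5 libraries in each of 4 groups. The first group were males aged 27 weeks given rotenone at 1% of the LC50, the median lethal concentration. The other groups were males aged 9 weeks given rotenone at 0.1%, 1% or 10% of the LC50. Rotenone is thus common to all 4 groups, and nothing below is set against untreated fish. The labels do not state that each library is a separate fish; the p-values rest on how much these libraries scatter, which may be technical. Skin holds several cell types, and less RNA per cell cannot be told apart from fewer cells that carry the transcript. Genes are listed by identifier alone and 0 identifiers matched a gene name, so the tissue could not be checked against marker genes and no function is given for any transcript.

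Rotenone blocks complex I of the mitochondrial respiratory chain, and the killifish is a short-lived fish used to study ageing. Relative RNA measurements need a yardstick: a transcript can be judged to rise or fall only against other transcripts or against the total. Reference transcripts are ones whose level is taken as constant, and genes kept on in most cells, such as those of cytoskeleton, glycolysis or translation, have customarily served. A yardstick that itself shifts with dose or age passes its shift, with the sign turned round, to every other gene.

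The libraries held between 21770720 and 29017737 reads assigned to genes. Replicates 1 and 4 at 0.1% stood apart on the first principal component of 17060 genes (29.6% of the variance), with scores of 114.6 and 97.96 against at most 14.4 in any other library. Replicates 1 and 2 at 10% stood apart on the second (15.7% of the variance), at 67.8 and 49.98 against at most 20.6. Its low end held the 27-week libraries, at -33.0 to -26.7, and those at 9 weeks and 1% ran from -27.7 to -0.84. The 0.1% libraries also come from a table of their own, so the dose of 0.1% and the table cannot be told apart. The share of reads taken by the 100 most abundant genes, none of them among the 200, ran from 29.8% to 46.1% over the libraries.

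The steadiest transcript was Nfu_g_1_017422, with an SD of 0.0988. Its CPM was 56.0, 57.6, 53.2, 58.8 and 56.2 at 27 weeks. At 9 weeks it was 48.3, 49.8, 47.2, 51.7 and 49.6 at 0.1%, 52.6, 52.3, 60.5, 53.8 and 51.8 at 1%, and 48.8, 49.8, 53.3, 54.7 and 57.6 at 10%. The highest library was 1.28 times the lowest. All 5 libraries at 0.1% were below all 5 at 27 weeks. They were also below all 5 at 1%, by a narrow margin (51.65 against 51.81 CPM). The 10% libraries overlapped every other group.

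The next was Nfu_g_1_007684, with an SD of 0.112 and a CPM between 39.04 and 51.8. It held 45.3, 47.8, 45.5, 47.8 and 48.6 CPM at 27 weeks, 51.8, 51.2, 44.5, 45.7 and 39.1 CPM at 0.1%, 43.1, 44.0, 43.9, 42.6 and 47.6 CPM at 1%, and 41.4, 44.0, 39.04, 44.0 and 40.0 CPM at 10%. Here the libraries at 27 weeks lay above all of those at 10%, and the 0.1% group spanned nearly the whole range. The third was Nfu_g_1_006916, with an SD of 0.118. Its CPM was 134.7, 122.6, 121.0, 117.1 and 116.1 at 27 weeks, 119.8, 131.0, 121.5, 123.2 and 120.4 at 0.1%, 148.1, 149.6, 123.2, 120.8 and 141.1 at 1%, and 115.5, 112.1, 115.1, 118.1 and 120.8 at 10%. Replicates 1, 2 and 5 at 1% were its high libraries, and its lowest library was replicate 2 at 10%.

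Over the 200 transcripts the SD had a median of 0.165, beside 0.334 for all 4646 genes of that level and 0.275 for the 100 most abundant. The ratio of the highest to the lowest library had a median of 1.53 and a range of 1.28 to 1.74. It was under 1.5 in 71 transcripts and under 2 in all 200, beside a median of 2.38 among genes of that level. The choice cut a continuous distribution: the last 5 inside had SDs of 0.179585 to 0.180158, and the first 5 outside had SDs of 0.180474 to 0.181121. The last inside, Nfu_g_1_018140, had a highest library 1.54 times its lowest, and the first outside, Nfu_g_1_016054, 1.62 times.

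**Figure D1:**
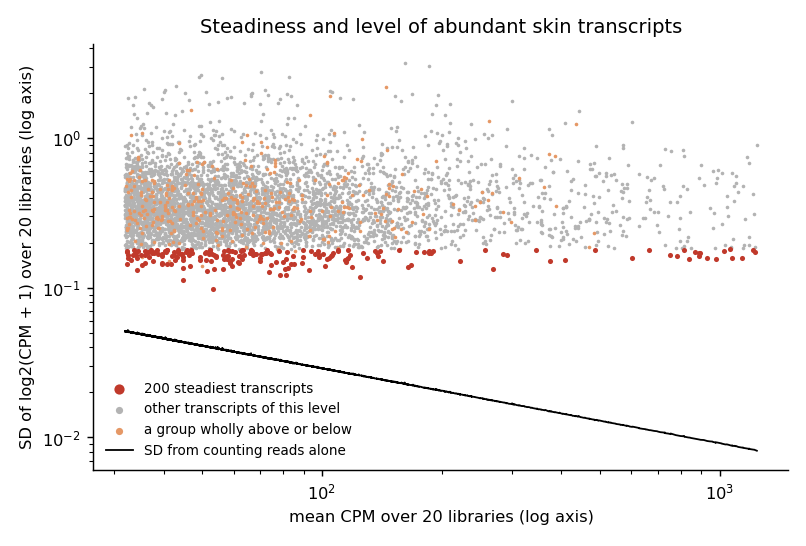
Spread against level for the 4646 genes with a mean CPM of at least 32 outside the 100 most abundant; the x axis is the mean CPM and the y axis the SD of log2(CPM + 1), both over 20 libraries on log axes. Red points are the 200 steadiest transcripts, orange points genes with a group wholly above or below, and the black line is the SD that counting reads alone would give, a median of 0.0364 among the 200.

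The transcripts were well read: the mean number of reads in a library had a median of 1571 and was at least 798.9. Counting error alone would give them a median SD of 0.0364, and it made up a median of 5.03% of their variance, with a range of 0.216% to 16.1%. Counting error was thus the smaller part of the spread in every one of the 200. Mean CPM ran from 32.3 for Nfu_g_1_018265 to 1230 for Nfu_g_1_013383, with a median of 63.4, and was under 64 in 102 transcripts and at least 100 in 60. Per length, the median RPKM of a transcript ran from 3.02 to 3286, with a median of 14.99 beside 15.2 among all genes of that level. The apparent length, read off the ratio of count to RPKM, had a median of 3854 bases beside 4159.

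Within single groups the transcripts had lower SDs as well, which is no separate result, as scatter within groups is part of the SD that chose them. The median SD over 5 libraries was 0.115 at 27 weeks, 0.150 at 0.1%, 0.149 at 1% and 0.111 at 10%. For all genes of that level it was 0.186, 0.313, 0.268 and 0.206 in the same groups. The 10% and 27-week groups were the tighter in both sets, and the group at 0.1%, with its 2 libraries apart, the widest.

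Part of the spread was common to the 200 transcripts. A shift shared by all of them in a library held 24.8% of their summed variance. Differences between the 4 group means, taken transcript by transcript, held 35.2%, where 4 groups of 5 take 15.8% by their number alone. The same libraries chose the transcripts, and the transcripts shift together within a library. Nothing is therefore read from the excess over 15.8%. The shared shift was measured as the mean deviation of the 200 transcripts from their own means. It was 0.094, 0.134, 0.061, 0.131 and -0.015 log2 at 27 weeks, and -0.030, -0.020, -0.158, 0.054 and -0.060 log2 at 0.1%. It was -0.027, -0.020, 0.145, 0.007 and -0.011 log2 at 1%, and -0.087, -0.089, -0.070, -0.025 and -0.016 log2 at 10%. Replicate 3 at 1% was above the highest library at 27 weeks, and replicate 3 at 0.1% was the lowest of all.

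In that lowest library 22 of the 200 transcripts were above their own mean, and in replicate 4 at 27 weeks 177 were. All 5 libraries at 10% had fewer than 100 transcripts above their mean, between 45 and 87. The groups averaged 0.081 ± 0.061 at 27 weeks, -0.043 ± 0.077 at 0.1%, 0.019 ± 0.071 at 1% and -0.057 ± 0.035 at 10% (log2, SD, n = 5 each). The libraries at 27 weeks overlapped the groups at 0.1% and at 1%, and lay above those at 10%, the lowest of them by a margin far under the spread within a group.

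The share of reads taken by the 100 most abundant genes tended to be high where these values were low, but not in every library. It was 33.0% to 34.9% at 27 weeks, 29.8% to 46.1% at 0.1%, 32.1% to 41.1% at 1% and 40.4% to 44.2% at 10%. In replicate 3 at 0.1%, where the transcripts were lowest, it was 46.1%, and in replicate 3 at 1%, where they were highest, it was 32.1%. Replicate 1 at 0.1% did not follow this order, with a share of 31.5% and a shift of -0.030 log2. At 10%, replicate 1 had a share of 40.4% and a shift of -0.087, and replicate 5 had 41.8% and -0.016. The part of this share in the shared shift was not tested.

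**Figure D2:**
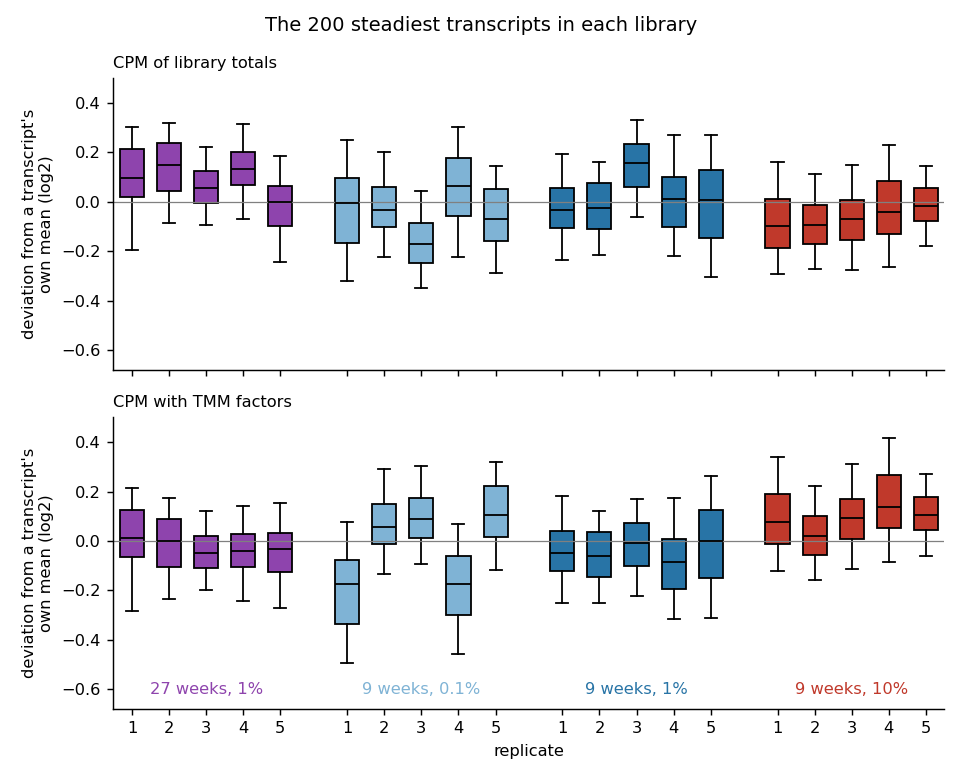
Deviation of the 200 transcripts from their own mean over 20 libraries (y axis, log2) in each library (x axis, replicate number within group), as CPM of library totals above and with TMM factors below. Boxes show the median and quartiles and whiskers the 5th to the 95th percentile. On totals the boxes at 10% lie low and those at 27 weeks mostly high, and with TMM factors the boxes at 10% lie high and replicates 1 and 4 at 0.1% lowest.

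Group differences were small by construction. The range of a transcript's 4 group means had a median of 0.238 log2, a minimum of 0.072 and a maximum of 0.372, and was under 0.3 in 166 of 200. The highest of the 4 means was at 27 weeks in 124 transcripts, at 0.1% in 22, at 1% in 38 and at 10% in 16. The lowest was at 27 weeks in 14, at 0.1% in 70, at 1% in 23 and at 10% in 93. The remaining shifts thus ran mostly one way, with skin at 27 weeks high and skin at 10% or 0.1% low on the scale of library totals. All 4646 genes of that level leaned the same way on totals. For 10% against 1%, 27.5% of them were higher, beside 28% of the 200 transcripts. For 27 against 9 weeks it was 61.1% beside 71.5%, for 1% against 0.1% 58.9% beside 70%, and for 10% against 0.1% 32.8% beside 39.5%.

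The upper dose step, 10% against 1% at 9 weeks, shows how far this depends on the scale. On library totals the 200 transcripts differed by a median of -0.083 log2, and 56 were higher and 144 lower at 10%. With TMM factors, which centre each library on the bulk of its genes, the same difference was 0.130 log2, and 172 were higher and 28 lower. The median over all genes tested moved alike: it was 0.036 with TMM factors and -0.184 on totals in edgeR's fits. Taken relative to that median, the 200 transcripts were higher at 10% than at 1% by 0.096 log2 with TMM factors. As 1 factor per library moves both medians alike, other scalings give nearly the same value by construction. The choice favoured transcripts that moved little on library totals, where genes at large were lower at 10%. It thereby favoured a value above 0, and no dose shift is read from it. Among the 4646 genes of that level the median difference was 0.035 log2 with TMM factors. With TMM factors and the same 200 transcripts, the value relative to all genes was 0.083 to 0.134 log2 with 1 library left out. Leaving out both libraries apart at 10% gave 0.163. The same limit holds for these values.

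For age, 27 against 9 weeks at 1%, the median difference was 0.077 log2 on totals, with 143 transcripts higher and 57 lower. With TMM factors it was 0.031 log2, with 120 higher and 80 lower. The 4646 genes of that level had medians of 0.084 log2 on totals and 0.038 with TMM factors, so the median of the 200 transcripts was not above theirs. The share higher at 27 weeks was 71.5% beside 61.1% of those genes on totals, and 60% beside 54.9% with TMM factors. As the choice used these libraries, nothing is read from either measure. The median over all genes tested, which takes in genes of lower level, was -0.021 log2 with TMM factors, and the 200 transcripts lay 0.046 above it.

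For the lower dose step, 1% against 0.1%, the median difference was 0.078 log2 on totals, with 140 transcripts higher and 60 lower, and -0.009 with TMM factors, with 96 higher and 104 lower. Relative to all genes it was 0.019 with TMM factors, and it was -0.128 once the 2 libraries apart at 0.1% were left out. For the widest step, 10% against 0.1%, the median difference was -0.029 log2 on totals, with 79 higher and 121 lower, and 0.098 with TMM factors, with 163 higher and 37 lower. Relative to all genes it was 0.092 with TMM factors and -0.038 without the same 2 libraries. Relative to all genes, both comparisons with 0.1% therefore turned their sign with these 2 libraries. The choice bears on the 0.092 as it does for 10% against 1%, as the median over all genes was -0.139 log2 on totals. With these 2 libraries left out, the median of the 200 transcripts itself kept its sign in edgeR's fits with TMM factors. It went from -0.020 to -0.117 log2 for 1% against 0.1%, and from 0.090 to 0.0009 for 10% against 0.1%. Leaving out 1 library at a time gave -0.054 to 0.022 log2 for 1% against 0.1%, so the sign of that median was not stable. For 10% against 0.1% the same gave 0.043 to 0.124 log2. The 4646 genes of that level had medians of -0.008 and 0.018 log2 with TMM factors over all libraries, in the same order.

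On library totals 165 of the 200 transcripts kept within 0.2 log2 for 10% against 1%, 176 for 27 against 9 weeks, 166 for 1% against 0.1% and 178 for 10% against 0.1%. Among all genes of that level the shares were 40.5%, 48.3%, 41.4% and 51.1% in the same order of comparisons. With TMM factors 133, 185, 173 and 146 of the 200 transcripts kept within 0.2 log2. Beside these stood 48.8%, 49.3%, 44.0% and 55.4% of all genes of that level.

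**Figure D3:**
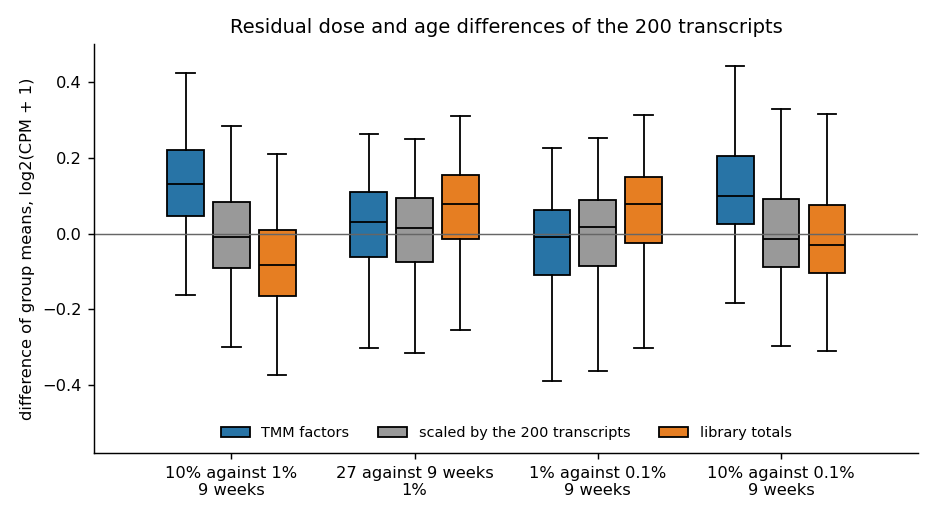
Differences of group means of the 200 transcripts (y axis, log2 of CPM + 1) for 4 comparisons (x axis) under 3 scalings, TMM factors in blue, scaling by the 200 transcripts in grey and library totals in orange. Boxes show median and quartiles and whiskers the lowest and highest transcript. For 10% against 1% the median is 0.130 with TMM factors and -0.083 on totals.

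Tests were run across the whole table with edgeR's quasi-likelihood test on the counts with TMM factors and Benjamini-Hochberg adjustment over all genes tested. For 10% against 1%, 780 genes rose (4.22%) and 902 fell (4.88%) of 18473, and 9.11% were called. All 200 transcripts were tested, 18 of them rose and 0 fell. Their increases were 0.22 to 0.44 log2, with a median of 0.33 and adjusted p between 0.0143 and 0.0499. As the choice of the transcripts used these libraries, nothing is read from their count beside that share. The number moved with single libraries: it was 1 without both libraries apart at 10%, where 2.11% of all genes were called, and without 1 library at a time it ran from 1 (without replicate 2 at 1%, with 3.44% of all genes called) to 18 (without replicate 3 at 1%, with 13.02%). It was 6, all of them lower, on library totals, where 19.1% of all genes were called, and 2 under scaling by the 200 transcripts themselves, 1 higher and 1 lower, where 14% were. DESeq2 called 35, all higher, and 11.7% of all genes. Among them was the steadiest transcript, Nfu_g_1_017422 (0.18 log2, DESeq2 adjusted p = 0.0291), which edgeR with TMM factors did not call (adjusted p = 0.115).

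The largest increase was that of Nfu_g_1_009943. It held 36.4, 32.7, 39.9, 36.8 and 42.1 CPM at 10% and 30.7, 29.2, 38.4, 29.9 and 33.7 CPM at 1%. The groups overlapped through replicates 3 and 5 at 1% and replicate 2 at 10%; in replicate 3 at 1% 175 of the 200 transcripts were above their own mean. The difference was 0.44 ± 0.09 log2 (SE; edgeR with TMM factors, adjusted p = 0.0143). Under scaling by the 200 transcripts it was 0.29 (adjusted p = 0.0304) and on library totals 0.21 (adjusted p = 0.168).

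The largest decrease was that of Nfu_g_1_010661, which held 28.9, 33.9, 32.5, 32.1 and 36.8 CPM at 10% and 38.0, 39.9, 45.1, 47.4 and 43.6 CPM at 1%. In CPM all 5 libraries at 10% lay below all 5 at 1%. With TMM factors the difference was -0.16 ± 0.08 log2 (SE; edgeR, adjusted p = 0.238), under scaling by the 200 transcripts -0.31 (adjusted p = 0.0343) and on library totals -0.38 (adjusted p = 0.0101). Such a gap between the groups in CPM was found in 10 of the 200 transcripts, all lower at 10%, and, in that direction, in 12.2% of all genes tested.

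For 27 against 9 weeks at 1%, 385 genes rose and 444 fell of 18473, so that 4.49% were called. The count over all genes ran from 17 without replicate 2 at 1% to 1754 without replicate 3 at 1%. Of the 200 transcripts 0 were called by edgeR, 12 (6%) had an unadjusted p under 0.05, beside 23.0% of all genes tested, and DESeq2 called 3, with 8.94% of all genes. The largest increase was that of Nfu_g_1_017420, with 211.0, 185.4, 181.5, 183.0 and 178.7 CPM at 27 weeks and 141.7, 153.6, 172.8, 151.8 and 137.8 CPM at 9 weeks. The groups did not overlap, which held for 2 of the 200 transcripts, both higher, and in that direction for 3.51% of all genes. The difference was 0.27 ± 0.08 log2 (SE; edgeR, adjusted p = 0.0794). Nfu_g_1_017420 was among the 3 that DESeq2 called (0.27 log2, DESeq2 adjusted p = 0.00854).

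Nfu_g_1_017420 was also among the dose calls. At 9 weeks it held 196.5, 189.2, 157.4, 195.7 and 197.1 CPM at 0.1% and 167.0, 177.9, 142.9, 161.4 and 167.5 CPM at 10%, with the values at 1% as above. Its mean was thus lowest at 1%. edgeR with TMM factors gave -0.40 log2 for 1% against 0.1% (adjusted p = 0.00728) and 0.33 log2 for 10% against 1% (adjusted p = 0.0282), and the second of these was lost under scaling by the 200 transcripts (0.19 log2, adjusted p = 0.157). The largest decrease with age was that of Nfu_g_1_008632, with 47.0, 41.7, 53.2, 51.5 and 53.5 CPM at 27 weeks and 52.6, 71.1, 54.7, 59.5 and 58.2 CPM at 9 weeks. Its groups overlapped, and the difference was -0.31 ± 0.11 log2 (SE; edgeR, adjusted p = 0.123).

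For 1% against 0.1%, 1585 genes rose (8.43%) and 1888 fell (10%) of 18808. Of the 200 transcripts 0 rose and 6 fell, by -0.40 to -0.25 log2. Without the 2 libraries apart at 0.1% the number was 11, all lower, with 4.58% of all genes called lower, and without 1 library at a time it was 2 to 5. On library totals 5 were called, 4 of them higher, with 16.1% of all genes, under scaling by the 200 transcripts 3, all lower, with 17.2%, and by DESeq2 10, all lower, with 19.6%. In CPM 6 transcripts had all 1% libraries above all 0.1% libraries, beside 6.74% of all genes. For 10% against 0.1% edgeR called 0 genes of 18808, a share of 0%, with 3855 at an unadjusted p under 0.05, and DESeq2 called 881 (3.89%). Of the 200 transcripts 0 were called, 41 had an unadjusted p under 0.05, about the share found over all genes tested (3855 of 18808), and DESeq2 called 8. In CPM 5 transcripts had all 10% libraries above those at 0.1% and 1 had all below, beside 0.617% and 1.7% of all genes.

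The 200 transcripts were not uniform in level. Split by mean CPM, with limits set after their levels were seen, 18 transcripts of at least 500 CPM moved together. Their shared shift held 79.3% of their summed variance, beside 28.0% in the 102 transcripts under 64 CPM, 25.4% in the 38 from 64 to 100 CPM and 22.04% in the 42 from 100 to 500 CPM. Among the other 116 genes of at least 500 CPM, with the 100 most abundant again left out, a shared shift held 6.47%. Those 116 genes had a median SD of 0.373, beside 0.167 in the 18, so 6.47% and 79.3% are shares of unlike spreads. The 18 had a median RPKM of 2161, beside 225.5 in those 116 genes, and a median apparent length of 512 bases, beside 2858, and 12 of the 18 were under 1000 bases beside 26 of the 116. No test was made of this difference, as both the SD and the level chose the 18.

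The 18 abundant transcripts together took 1.95%, 2.01%, 1.70%, 1.77% and 1.71% of all reads at 27 weeks. They took 1.37%, 1.62%, 1.502%, 1.55% and 1.56% at 0.1%, 1.59%, 1.53%, 1.97%, 1.67% and 1.43% at 1%, and 1.64%, 1.52%, 1.66%, 1.90% and 1.63% at 10%. The 27-week libraries lay above all libraries at 0.1%, and replicate 3 at 1% and replicate 4 at 10% were as high as the libraries at 27 weeks. In those 2 libraries all 18 transcripts were above their own mean, and at 27 weeks 14 to 17 of the 18 were. At 0.1% it was 0 to 3 of the 18. In replicates 1, 2, 4 and 5 at 1% it was 1, 0, 14 and 1. In replicates 1, 2, 3 and 5 at 10% it was 9, 1, 9 and 5.

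The most abundant of the 18 was Nfu_g_1_013383. It held 1446, 1444, 1275, 1345 and 1252 CPM at 27 weeks, 962.4, 1211, 1091, 1094 and 1090 CPM at 0.1%, 1191, 1092, 1467, 1163 and 1044 CPM at 1%, and 1345, 1165, 1278, 1443 and 1202 CPM at 10%. The high libraries of the whole class, replicate 3 at 1% and replicate 4 at 10%, were its high libraries at those doses. For 10% against 1% its difference was 0.34 ± 0.10 log2 (SE; edgeR with TMM factors, adjusted p = 0.0472), and it was 0.19 under scaling by the 200 transcripts (adjusted p = 0.164) and 0.11 on library totals (adjusted p = 0.512). Nfu_g_1_018140 held 1300, 1268, 1085, 1176 and 1030 CPM at 27 weeks, 874.2, 983.7, 887.5, 987.1 and 1006 CPM at 0.1%, 954.7, 1027, 1346, 1161 and 909.5 CPM at 1%, and 1022, 954.7, 1066, 1180 and 983.7 CPM at 10%. It shared the high values in replicate 3 at 1% and replicate 4 at 10%.

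Over the class the median difference for 10% against 1% was 0.259 log2 with TMM factors, with 18 of 18 higher, and 0.042 on totals, with 12 higher and 6 lower. For 27 against 9 weeks it was 0.125 log2 with TMM factors and 0.172 on totals, with 17 of 18 higher on both. These shifts were not particular to the 18, as the 100 most abundant genes leaned the same way. For 10% against 1% their median was 0.285 log2 with TMM factors, with 96 higher, and 0.068 on totals, with 77 higher. For 27 against 9 weeks it was 0.181 with TMM factors, with 71 higher, and 0.228 on totals, with 72 higher. The transcripts under 64 CPM differed by 0.090 log2 with TMM factors and by -0.122 on totals for 10% against 1%, with 83 and 24 of 102 higher. The difference of the abundant class was thus above that of the transcripts under 64 CPM by 0.169 log2 with TMM factors and 0.164 on totals. It was nearer to the transcripts from 100 to 500 CPM, whose median difference was 0.155 log2 with TMM factors and -0.061 on totals. Of the 18, 0 were chosen again when the choice was repeated on CPM with TMM factors, against 48 of the 102 transcripts under 64 CPM.

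**Figure D4:**
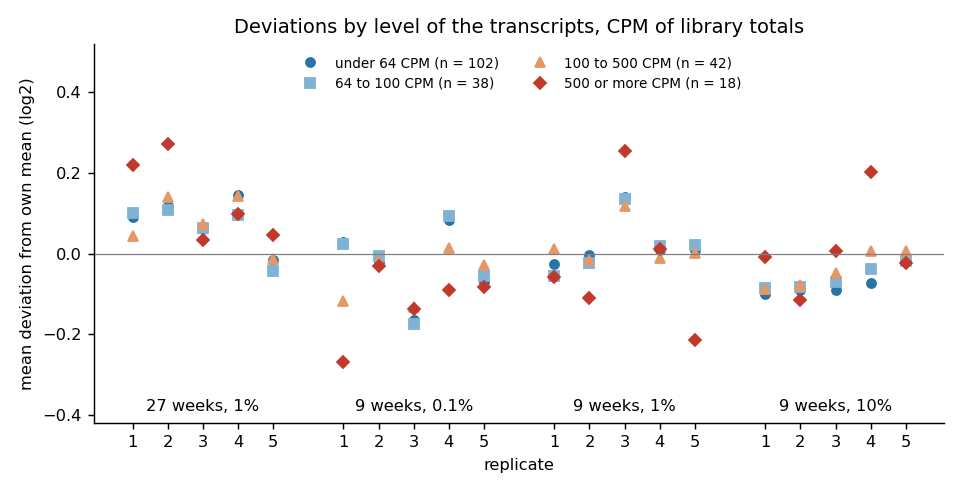
Mean deviation from their own means (y axis, log2, CPM of library totals) of the 200 transcripts in 4 classes of mean CPM, in each library (x axis, replicate number within group). The 18 transcripts of at least 500 CPM, red diamonds, run from -0.269 in replicate 1 at 0.1% to 0.272 in replicate 2 at 27 weeks and part from the transcripts under 64 CPM most in replicate 1 at 0.1% (0.028 for those), one of the libraries that stand apart, and also in replicate 4 at 10% and replicate 5 at 1%.

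Steadiness was also looked at in libraries that had no part in the choice. The 200 steadiest genes were chosen again from 19 libraries and their deviation was read in the library left out, 20 times in all. Their median absolute deviation there was 0.078 to 0.217 log2, with a median of 0.139, beside 0.171 to 0.339 with a median of 0.233 for all genes of that level. It was the smaller in 20 of 20 libraries, by a ratio of 0.439 to 0.911. The ratio was nearest to 1 in replicate 3 at 1%, in which the genes chosen were high by a median of 0.185 log2, and in replicates 1 and 2 at 27 weeks. Between 169 and 193 of the 200 transcripts were chosen again each time.

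A harder case is a whole group unseen. When 200 genes were chosen from the 15 libraries at 1% and 10% alone, 121 of the 200 transcripts were among them. In the 5 libraries at 0.1% those genes had a median SD of 0.199, beside 0.308 for all genes of that level, and 0.125 beside 0.204 without the 2 libraries apart. The mean at 0.1% differed from that of the 15 libraries by a median of -0.076 log2, beside -0.062 for all genes of that level. Without the 2 libraries apart it was -0.152 beside -0.145. Gene by gene, the median absolute difference was 0.139 log2 beside 0.187, and 74.5% beside 52.9% kept within 0.2 log2. The genes chosen were thus less spread within the unseen group and singly less displaced in it. As a body they were displaced by about as much as genes at large.

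Used as a yardstick, the 200 transcripts gave each library a scaling factor, the shared shift as a ratio. These factors ran from 0.896 to 1.106 with an SD of 0.057, and the TMM factors from 0.833 to 1.183 with an SD of 0.104. The choice by a low SD on library totals keeps such factors near 1, the factor under totals. Their narrower range is thus no separate result. The log2 ratio of reference to TMM factor averaged -0.030 ± 0.023 at 27 weeks, -0.020 ± 0.162 at 0.1%, -0.045 ± 0.030 at 1% and 0.096 ± 0.047 at 10% (SD, n = 5 each). It was -0.205 and -0.189 in replicates 1 and 4 at 0.1%, and 0.072 to 0.115 in the other 3 libraries of that dose. All libraries at 10% were above 0 and all at 1% below 0.

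The factor was recomputed from fewer of the same transcripts, beside an SD of the shared shift over the 20 libraries of 0.081 log2. The 5 steadiest gave factors within 0.073 log2 of those of all 200, the 20 steadiest within 0.074 and the 100 steadiest within 0.024. Odd and even ranks differed by at most 0.042 log2, in replicate 3 at 0.1%. The 60 transcripts of at least 100 CPM, which hold the 18 abundant ones, departed by up to 0.133 log2, in replicate 1 at 0.1%.

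Scaling by the 200 transcripts in place of TMM factors changed which genes edgeR called in the upper dose step. For 10% against 1% it called 514 genes higher and 2067 lower, beside 780 higher and 902 lower with TMM factors, and 408 higher and 3122 lower on library totals. The genes lower at 10% made up 80.1%, 53.6% and 88.4% of the calls under these scalings. As the choice on library totals keeps the factors near 1, calls between those of TMM factors and of totals were favoured in advance. Which scale is right is not read from this order. All 902 genes called lower with TMM factors were called lower again, and 510 of the 780 called higher were, which is 65.4% of those and 99.2% of the 514. For 27 against 9 weeks the member-based scaling gave 367 higher and 451 lower, of which 354 and 432 were also called with TMM factors. For 1% against 0.1% it gave 1619 higher and 1617 lower, of which 1439 and 1610 were shared. For 10% against 0.1% it called 0 genes, with 4355 at an unadjusted p under 0.05.

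**Figure D5:**
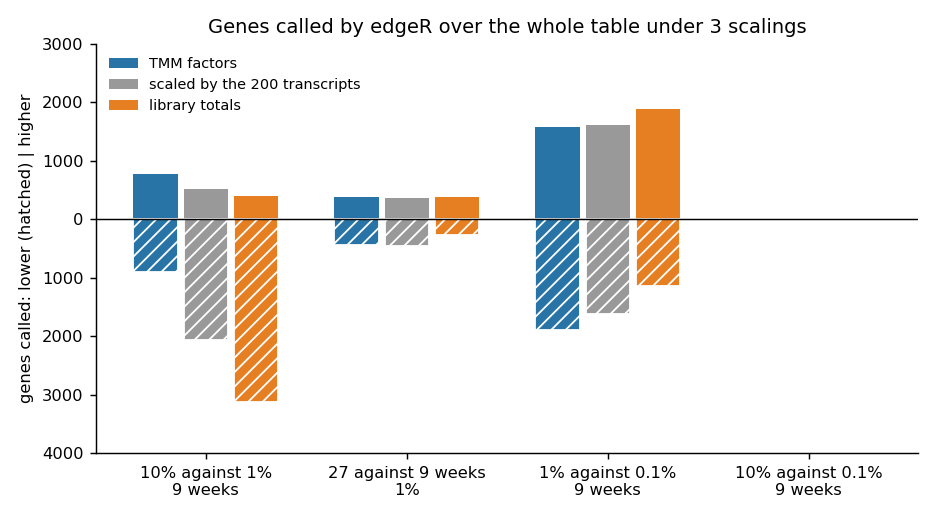
Number of genes called by edgeR over the whole table (y axis, genes higher upward and genes lower downward, hatched) for 4 comparisons (x axis) under TMM factors in blue, scaling by the 200 transcripts in grey and library totals in orange. For 10% against 1% the genes called lower number 902, 2067 and 3122 in that order, and for 10% against 0.1% there are 0 under each scaling.

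The identity of the 200 transcripts rested on the scale as well. Chosen again on CPM with TMM factors, 74 of the 200 returned, and on the deposited RPKM values 65 did. On the TMM scale the 200 had a median SD of 0.161 and a range of 0.068 to 0.285, beside 0.308 for all genes of that level, and on RPKM 0.238 beside 0.359. The deposited RPKM values have a divisor that differs between columns from row to row, with an SD of at least 0.178 log2 over all rows. Its part in the RPKM results was not tested. With a pseudocount of 0.1 in place of 1 198 returned, and without the condition on groups 195. With a minimum mean of 16 CPM 137 returned, and with 64 CPM 98.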

How the data were processed

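Per the submitters' processing notes, the tools were featureCounts 1.4.6-p4, STAR 2.4.1d and CASAVA 1.8.2. Build, annotation and strandedness were not given in the sources used here. Whole read counts per gene, without normalization, were deposited by the authors in 2 tables, and RPKM values beside them. Columns were matched to samples by title; 10 columns of counts and 9 of RPKM match no sample described here and were not used. The deposited RPKM values have a divisor that repeats every 35 rows between columns (19 column pairs; SD within rows of 1 remainder at most 4.28e-05 log2, and at least 0.178 over all rows), and serve for levels and 1 alternative.

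CPM used the column totals over the 26739 genes. edgeR 4.0.16 (R 4.3.3; TMM, filterByExpr, glmQLFit, glmQLFTest, two-sided, 1 mean per group) was fitted on the 15 libraries of the first table for 10% against 1% and for age, and on all 20 for comparisons with 0.1%; the threshold was an adjusted p of 0.05. The scripts were tested on simulated data. DESeq2 1.42.0, RLE factors, library totals, no filter beyond 1 read, other minimum levels and each library left out were alternatives. Libraries apart on principal components were left out after seeing the data. No 2 replicates agreed within sampling noise (smallest chi-square per degree of freedom 32.6). Reads shared by gene copies or overlapping genes could not be resolved.

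Named are the 3 lowest SDs, the transcripts on either side of rank 200, the highest and lowest mean CPM, and the largest increase and decrease for 10% against 1% and for age. Lists of customary reference genes and of cell type markers could not be matched to identifiers, and no sequence was looked up. The transcripts, lists and comparisons were chosen with earlier results of these data known.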

Additional observations from a re-analysis of the deposited data

Results flagged for a closer look

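Of 64 groups of 5 values examined, 5 held a library whose gap to its nearest neighbour exceeded Dixon's critical value for groups of 5, which chance gives in about 1 in 20 groups. The mean shift of the 200 transcripts was 0.145 log2 in replicate 3 at 1%, and the next library of that group was at 0.007. In the same library Nfu_g_1_017422 held 60.5 CPM, with 53.8 the next. Nfu_g_1_007684 held 47.6 CPM in replicate 5 at 1%, with 44.0 the next. Nfu_g_1_017420 held 211.0 CPM in replicate 1 at 27 weeks, with 185.4 the next, and 157.4 CPM in replicate 3 at 0.1%, with 189.2 the next. Replicate 3 at 1% and replicate 3 at 0.1% were also the libraries in which the 200 transcripts as a body stood highest and lowest.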

How the results depend on the processing

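Shares in brackets are of all genes tested. For 10% against 1%, scaling by the 200 transcripts called 2581 genes (14%) and 2 of the 200, with a median of -0.010 log2. Library totals called 3530 (19.1%) and 6, with a median of -0.087. DESeq2 called 2603 (11.7%) and 35, and edgeR without the filter 1395 (6.13%) and 6. Leaving out both libraries apart at 10% gave 397 (2.11%) and 1. Without 1 library at a time 642 to 2421 genes and 1 to 18 of the 200 were called. For 27 against 9 weeks, library totals gave a median of 0.075, DESeq2 called 1982 genes (8.94%) and 3 of the 200, and without 1 library 17 to 1754 genes were called. For 1% against 0.1%, scaling by the 200 transcripts called 3236 genes (17.2%) and 3 of the 200. edgeR without the filter called 3394 (14.8%) and 2, and DESeq2 4434 (19.6%) and 10. Leaving out both libraries apart at 0.1% gave 11 of the 200, all lower (4.58% of all genes called lower). Without 1 library at a time 2301 to 3905 genes and 2 to 5 of the 200 were called. For 10% against 0.1%, library totals gave a median of -0.037, DESeq2 called 881 genes (3.89%) and 8 of the 200, leaving out the libraries apart at 10% gave 7 genes, and without 1 library 0 to 1. The cause of these changes was not tested. No paired analysis was possible because the replicate numbers follow accession order and the labels pair no libraries. Counting error made up a median of 5.03% of the variance of the 200 transcripts; the 5 libraries in a group and the lack of gene names are further limits.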
